A study of Mus musculus with 4 samples.

Results

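Conventional type 2 dendritic cells (cDC2) were described in single-cell RNA libraries of tibial muscle from Nse-Bmp4 mice. The cells were chosen by raw counts of unique molecular identifiers (UMIs, each standing for 1 captured RNA molecule): at least 2 UMIs of Cd209a, at least 10 UMIs of the MHC class II genes H2-Aa, H2-Ab1 and H2-Eb1 together, none of Xcr1, Cd79a or Siglech, and a mitochondrial share of at most 10%. This gave 890 cells of the 59824 under the mitochondrial limit and of the 62665 deposited. In the mice the neuron-specific enolase (Nse) promoter drives Bmp4, a bone morphogenetic protein, on a C57BL/6 background, and heterotopic ossification, bone in soft tissue, follows muscle injury. Muscles of mice 6 to 8 weeks old were taken without injury (Uninjured) or at 1, 3 or 7 days post-injury (dpi) with cardiotoxin, a venom toxin that kills muscle fibres. All 4 groups carried the transgene, and no wild-type muscle was analysed here. Each group was 1 10x library of 3 pooled muscles digested with collagenase, so a time point cannot be told apart from its library and no test between time points was possible.

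The Uninjured library held 12031 cells and 112317902 UMIs, the 1 dpi library 11722 cells and 91146335 UMIs, the 3 dpi library 15160 cells and 116346301 UMIs, and the 7 dpi library 23752 cells and 129007669 UMIs. They gave 168, 132, 499 and 91 cDC2 in that order. The summed cDC2 UMIs were 1866436, 1541562, 3407462 and 626798, and the median per cell was 9650.5, 10690.5, 6004 and 5814. The 7 dpi cDC2 were therefore the fewest and, with the 3 dpi cells, the shallowest. Levels below are in CPM, the usual scaled share: a gene's UMIs divided by all UMIs summed over the cDC2 of a library, and all intervals are 95% intervals that cover counting error only.

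Dendritic cells take up antigen in tissues, load its peptides on MHC class II molecules and carry them to lymph nodes, where they activate T cells. Conventional dendritic cells need the cytokine receptor Flt3 and the transcription factor Zbtb46 marks them. The cDC1 branch depends on Irf8 and Batf3 and is specialised in presenting antigen to CD8 T cells, while the cDC2 branch expresses Irf4, Sirpa and lectins such as Clec10a and mainly primes CD4 T cells. Cd209a, a C-type lectin related to human DC-SIGN, marks cDC2 and some cells derived from monocytes, which can take on a dendritic phenotype in inflamed tissue.

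The genes used by the rule are given as a description. Median Cd209a UMIs per cell were 8 in Uninjured, 7 at 1 dpi, 6 at 3 dpi and 4 at 7 dpi, and the highest cell of each library held 33, 49, 39 and 26. The median of the class II UMIs was 335.5, 209.5, 159 and 150, far above the 10 required. Of all Cd209a UMIs of a library's deposited cells, 95.8%, 88.0%, 88.2% and 78.1% lay in the cDC2. Just inside the Cd209a threshold, with 2 UMIs, were 18, 19, 66 and 22 cells, and just outside it, with 1 UMI, were 34, 24, 98 and 51. Clec10a, which the rule did not use, had a UMI in 50%, 47.4%, 53.0% and 27.3% of the cells just inside, in 70.6%, 54.2%, 35.7% and 25.5% of those just outside, and in 78.7%, 74.3%, 80.6% and 75.4% of the cells with 3 or more Cd209a UMIs. The share was thus lower at 1 or 2 Cd209a UMIs than at 3 or more in each library, with the cells not matched for depth, and which of the pair was lower varied between libraries.

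Among markers that the rule did not use, Flt3, Clec10a, Itgax and Zbtb46 were above their share in T cells in every library, and Irf4, which T cells also express, was not. Flt3 had a UMI in 44.6% of Uninjured, 52.3% of 1 dpi, 39.3% of 3 dpi and 18.7% of 7 dpi cDC2. After every cell was thinned to 2000 UMIs, so that depth was equal, the shares were 13.9%, 24%, 16.2% and 4.6%, against 0%, 0%, 0.261% and 0% of T cells, which lack the gene. Clec10a was found in 40.4%, 36.4%, 54.5% and 46% of thinned cDC2. Itgax, which encodes CD11c, was found in 9.04%, 8.53%, 12% and 8.05%, against 1.51%, 2.81%, 3.13% and 3.66% of T cells. The thinned share of Irf4 was 7.23%, 8.53%, 3.79% and 4.6%, against 1.01%, 5.19%, 5.74% and 3.66% of T cells, so that at 3 dpi it was below that of T cells. Zbtb46 was found in 4.22%, 5.43%, 3.37% and 2.3% of thinned cDC2, against 0%, 0%, 0.261% and 0.813% of T cells, at 7 dpi on 2 cDC2.

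Markers of other cells were present to different degrees. Over all cDC2, Ccr2, a receptor of monocytes that cDC2 also express, was at 465, 607, 453 and 514 CPM, and Csf1r at 64.3, 71.4, 72.5 and 89.3 CPM. C1qb of macrophages was at 120, 66.8, 53.1 and 310 CPM. Its UMIs lay in a few cells: the 13, 9, 13 and 7 cDC2 with 3 or more C1q UMIs held 224 of 224, 98 of 103, 156 of 181 and 191 of 194, and the others were at 0, 3.60, 7.56 and 5.56 CPM. Clec9a of cDC1 was at 2.68, 5.19, 2.05 and 0 CPM. Ly6c2 of classical monocytes had a UMI in 5.36%, 41.7%, 10.2% and 7.69% of cDC2 (1.81%, 22.5%, 7.37% and 3.45% thinned). At 1 dpi the share with Ly6c2 was 89.0% of C1q macrophages (14.3% in Uninjured), 7 of 13 cDC1, 45.5% of T cells (24.9%, and 61.9% at 3 dpi) and 7.94% of B cells (2.29%). Without the members with a Ly6c2 UMI, 783 genes were past 2-fold higher and 307 lower at 1 dpi against Uninjured, near the counts given below, with Irf7 at a log2 ratio of 3.79 and Plac8 at 3.29. The 8 T and NK cell genes outside the gates summed to 41.3, 30.5, 80.1 and 49.5 CPM against at least 2371 CPM in T cells.

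As a share of kept cells, cDC2 made up 1.42% (1.22 to 1.65) in Uninjured, 1.22% (1.02 to 1.44) at 1 dpi, 3.53% (3.24 to 3.85) at 3 dpi and 0.395% (0.318 to 0.485) at 7 dpi. The 3 dpi share was the highest and the 7 dpi share the lowest, with no overlap of their intervals with those of the other libraries. Since shallow cells can miss the Cd209a threshold, the gate was repeated on cells thinned to 2000 UMIs, which gave 0.754%, 0.607%, 2.84% and 0.279% and the same order. Among cells with a UMI of Ptprc, the pan-leukocyte gene CD45, the order was different: 11.0% (159 of 1443) in Uninjured, 2.25% (128 of 5696) at 1 dpi, 8.80% (460 of 5230) at 3 dpi and 2.18% (78 of 3579) at 7 dpi. Thinned, these shares were 5.96%, 1.18%, 7.77% and 1.88%. Whether Uninjured or 3 dpi was highest among leukocytes thus differed with depth, and their intervals overlapped in both settings. The intervals were 9.45 to 12.7 and 8.04 to 9.60 with all UMIs, and 4.51 to 7.71 and 6.84 to 8.79 thinned. The other gates used below held 77, 619, 497 and 108 C1q macrophages (at least 10 UMIs of C1qa, C1qb and C1qc), 52, 489, 113 and 47 classical monocytes (by Ly6c2, Ccr2 and Csf1r, with few class II UMIs) and 6, 13, 59 and 5 cDC1 (by Xcr1 and Clec9a).

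**Figure D1:**
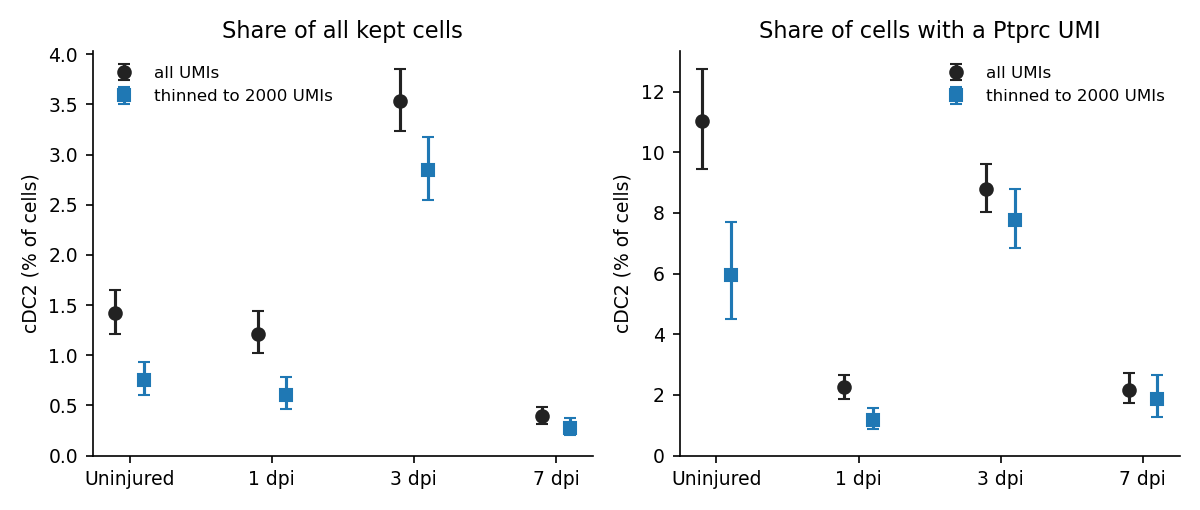
Share of cDC2 by time point, as percent of all kept cells (left) and of cells with a Ptprc UMI (right), with exact 95% intervals for counting error and 1 library per point. Circles use all UMIs and squares use cells thinned to 2000 UMIs: among all kept cells 3 dpi is highest with both (3.53% and 2.84%), while among Ptprc cells the highest is Uninjured with all UMIs (11.0%) and 3 dpi after thinning (7.77%). The Ptprc intervals of Uninjured and 3 dpi overlap in both settings.

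To find what set cDC2 apart from related cells, UMIs were summed per library and gate and fitted in 1 model with edgeR, with library as a block and the libraries, which are also the time points, as replicates. Genes used by any gate were left out of the test. The cDC1 sums of Uninjured and 7 dpi, of under 10 cells, were dropped, so the comparison with cDC1 rests on 1 and 3 dpi. Of 9449 genes tested, 413 (4.37%) were higher and 217 (2.3%) lower in cDC2 than in cDC1 at an edgeR adjusted p of at most 0.05. Without the 1 dpi library these counts were 183 and 116, and without 3 dpi the lower count was 96, with 1 cDC1 sum left that was assumed to vary like the others.

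The transcription factors of the 2 branches separated the gates. Irf8, on which cDC1 depend, was at 24.6, 77.8, 49.9 and 27.1 CPM in cDC2 and at 2082 and 1982 CPM in cDC1 at 1 and 3 dpi, without overlap (log2 fold change -5.07, SE 0.27, edgeR adjusted p = 2.12e-07). Id2 was lower too, with a log2 fold change of -2.59 and an edgeR adjusted p of 9.49e-05. Irf4 was at 30.5, 38.9, 20.5 and 19.1 CPM in cDC2 and had no UMI in the cDC1 sums tested, which makes it at least 8.21-fold higher in cDC2 against the floor of 3 UMIs over the group, while the dropped Uninjured sum of 6 cDC1 held 1 UMI. All 10 cDC1 genes of the list outside the rule were lower in cDC2, among them the endosomal RNA sensor Tlr3 (log2 fold change -4.26), the amidase Naaa (-2.50), Batf3 (-1.81) and Cadm1 (-3.09). The Cadm1 call was lost without the 3 dpi library (-2.69, edgeR adjusted p = 0.413). Flt3, Zbtb46 and Itgax, which both branches share, were not called, with log2 fold changes of -0.76 (SE 0.35), -0.11 (SE 0.53) and 1.04 (SE 0.42).

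Of 22 tested genes on the list of dendritic cell identity, 9 were higher in cDC2 than in cDC1 and 1, Id2, was lower. Sirpa, an inhibitory receptor, was at 95.9, 193, 202 and 147 CPM in cDC2 against 3.87 and 14.8 CPM in cDC1 (log2 fold change 4.13, SE 0.39, edgeR adjusted p = 2.39e-05). Clec10a and Mgl2, paired lectins for galactose-type sugars, reached 531 and 654 CPM in cDC2 and had 2 and 1 UMIs in cDC1. The ratios of pooled CPM were 212 (58.5 to 1749) for Clec10a and 271 (48.6 to 10713) for Mgl2, and the Mgl2 call was lost without 3 dpi (edgeR adjusted p = 0.389), without Uninjured (0.0622) or without 7 dpi (0.0783). Ffar2, a receptor for short-chain fatty acids, was absent from the cDC1 sums and at least 25.5-fold higher in cDC2. Genes named by the size of their fold also included Clec4a1 and Mcemp1, at least 30.1-fold and 32.7-fold higher against the sums tested, although the dropped Uninjured sum of 6 cDC1 held 1 and 2 UMIs of them, and the signalling adaptor Blnk and the IL-33 receptor Il1rl1, at least 9.48-fold and 10.2-fold higher. Of these the calls were lost without 1 dpi for Clec4a1 (edgeR adjusted p = 0.0757) and without 3 dpi for Mcemp1 (0.323), Blnk (0.051) and Il1rl1 (0.0586). Lower in cDC2 were Snx22 (ratio of cDC1 over cDC2 245, 66.0 to 2056), Gcsam (158, 52.5 to 782) and the integrin Itgae, or CD103 (log2 fold change -6.26, SE 0.69). Without 3 dpi the calls were lost for Gcsam (edgeR adjusted p = 0.0579) and Itgae (0.157).

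Chemokines and early response genes added to the difference from cDC1, for which 4.37% of all genes were higher and 2.3% lower. The monocyte-attracting chemokine Ccl9 was at 346, 575, 465 and 380 CPM in cDC2 against 7.74 and 10.4 CPM in cDC1 (log2 fold change 5.83, SE 0.42, edgeR adjusted p = 2.67e-06). Of 18 chemokines tested, 4 were higher in cDC2 and none lower. Of 16 immediate early and heat shock genes, 10 were higher and none lower, Egr1 with 1099, 882, 1275 and 973 CPM against 139 and 332 CPM. Of 13 C-type lectins, 6 were higher and none lower. Of 12 macrophage genes outside the gates, 4 were higher than in cDC1 (Adgre1, Fcgr1, Cd163 and Cd14) and none lower. Of 12 monocyte genes, 2 were higher (F13a1 and Ms4a4c) and none lower. Il1b, which encodes interleukin-1 beta, was higher in cDC2 (log2 fold change 1.32, SE 0.32, edgeR adjusted p = 0.0313), and the call was lost without 1 dpi (0.179) or 3 dpi (0.188). Of 12 genes of class I presentation, 3 were lower in cDC2 and none higher, among them the immunoproteasome subunit Psmb8 (log2 fold change -1.41, SE 0.18).

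Against C1q macrophages, 870 genes (9.21%) were higher and 766 (8.11%) lower in cDC2, over all 4 libraries. Without 1 dpi the counts were 541 and 507. Flt3 was at 63.2, 102, 87.5 and 35.1 CPM in cDC2 and at 2.69, 0.188, 1.59 and 1.45 CPM in macrophages, so that every cDC2 library lay above every macrophage library (log2 fold change 6.45, SE 0.44, edgeR adjusted p = 5.28e-07). Zbtb46 (log2 fold change 4.70), the kynurenine pathway enzyme Kmo (3.99), Clec10a (2.97), Itgax (2.91) and Irf4 (1.90) were higher as well, as part of 11 of 22 identity genes higher. Sirpa, Clec4a2 and Id2 were the 3 that were lower in cDC2. The genes with the largest folds were the chemokine Ccl17, with 567 UMIs in cDC2 and 2 in macrophages (ratio 381, 105 to 3158), H2-Oa (log2 fold change 7.03), Cd7 (6.22), Ffar2 (5.59), Klrd1 (5.44), Adgrg5 (5.19) and Ifitm1 (4.91). Cd209c and Cd209d were also among them, and as near copies of the gate gene Cd209a their counts are uncertain.

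Macrophage genes were correspondingly low. Of 12 tested genes of the macrophage list outside the gates, 9 were lower in cDC2 and 1, the haemoglobin scavenger receptor Cd163, was higher (log2 fold change 1.93, SE 0.35, edgeR adjusted p = 0.00159). Mertk, which binds dying cells, had no UMI in Uninjured and 1 dpi cDC2 and a log2 fold change of -5.59. Apoe (-5.76), Ms4a7 (-6.17), the folate receptor Folr2 (-6.42) and the monocyte chemokine Ccl12 (-7.15) were lower too. Of 17 genes of antigen uptake and the lysosome, 11 were lower and 1 higher, with the proteases Ctsb and Ctsd at log2 fold changes of -2.60 and -3.18, and of 15 pattern receptors 11 were lower and none higher, with Tlr7 at -3.45.

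Against classical monocytes, 575 genes (6.09%) were higher and 404 (4.28%) lower in cDC2. Without 3 dpi the higher count was 352, and without Uninjured the lower count was 249. Kmo was at 36.4, 88.2, 120 and 43.1 CPM in cDC2 and at 4.55, 4.21, 4.64 and 4.17 CPM in monocytes (log2 fold change 4.34, SE 0.29, edgeR adjusted p = 4.56e-07). Itgax (4.06), Flt3 (3.49), Irf4 (2.71) and Clec10a (4.57) were among 10 of 22 identity genes higher, with none lower. Sirpa, at 95.9, 193, 202 and 147 CPM against 146, 312, 191 and 225 CPM, overlapped between the gates and was not called (log2 fold change -0.31, SE 0.20). Ctnnd2, a catenin, and Ccl17 had 359 and 567 UMIs in cDC2 and 1 each in monocytes (ratios 368, 65.7 to 14592, and 582, 104 to 23023). Of 12 monocyte genes, 7 were lower in cDC2 and none higher. Of 5 cartilage genes tested, 4 were higher in cDC2 (Col2a1, Acan, Col9a1 and Cnmd), with nearly all their UMIs at 7 dpi, where Col2a1 was at 1347 CPM in cDC2 and 100.02 CPM in monocytes. Neither other comparison called any of the 5. Hp, which encodes haptoglobin, had a log2 fold change of -5.43 (SE 0.53) and the scavenger receptor Msr1 one of -5.10 (SE 0.43). Plac8 was at 131, 1358, 310 and 322 CPM in cDC2 against 2522, 2765, 1881 and 2651 CPM in monocytes (log2 fold change -2.74, SE 0.53, edgeR adjusted p = 0.0135). Its call was lost without 3 dpi (0.174) or without 7 dpi (0.0726).

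**Figure D2:**
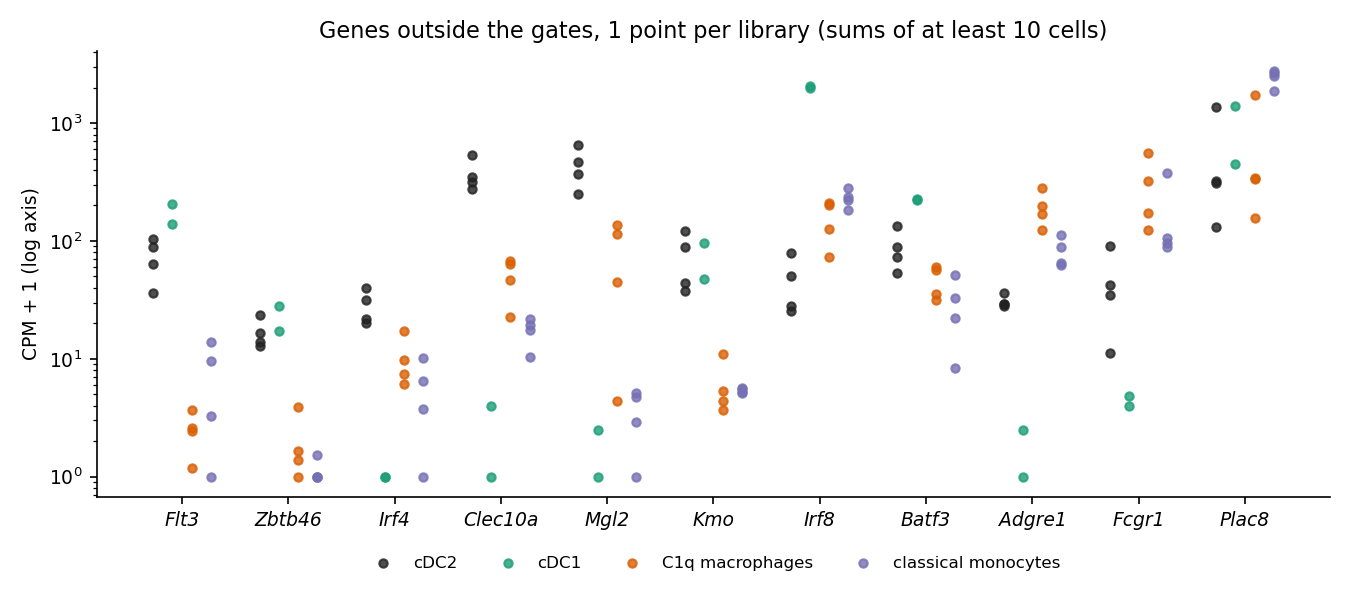
CPM + 1 on a log axis of 11 genes outside the gates, 1 point per library and gate, for sums of at least 10 cells (4 libraries, 2 for cDC1). The cDC2 points of Flt3 (35.1 to 102 CPM) lie above all macrophage and monocyte points and below both cDC1 points, and the Irf8 points of cDC2 (24.6 to 77.8 CPM) lie far below those of cDC1.

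The machinery that loads class II molecules followed the class II genes used by the rule. Cd74, the invariant chain, was at 24998, 16732, 17240 and 17865 CPM in cDC2, at 9733, 2185, 5690 and 9583 CPM in macrophages, and at 12987 and 12856 CPM in cDC1 at 1 and 3 dpi. It was higher than in macrophages (log2 fold change 1.71, SE 0.32, edgeR adjusted p = 0.00677, or 0.114 without 3 dpi) and did not pass the test against cDC1 (0.34, SE 0.40). Ciita, the master regulator of class II genes, was at 139, 234, 287 and 174 CPM in cDC2 and at 30.9, 16.0, 48.4 and 50.9 CPM in macrophages (log2 fold change 2.71, SE 0.31). Of 11 class II processing genes tested, 9 were higher and 1, the protease Lgmn, lower than in macrophages, against 9.21% and 8.11% of all genes. Against cDC1, 1 of the 11, Ifi30, was higher and none lower, where 4.37% of all genes were higher and 2.3% lower. Monocytes were chosen for few class II UMIs, so for them these genes give no comparison. For cDC2 the rule required at least 10 class II UMIs, and for macrophages it required none. The comparison with macrophages may thus be partly set by the rule. Between time points none of the 11 moved past 2-fold at 1 or 3 dpi. At 7 dpi against 3 dpi, 1 of 11, March1, a ubiquitin ligase that removes class II from the surface, was lower. This was near the share over all genes, of which 9.94% were lower.

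Between time points a gene was called when its CPM differed by at least 2-fold, over genes with at least 50 UMIs in the cDC2 of both libraries together. At 1 dpi against Uninjured, 708 of 6311 genes (11.2%) were higher and 299 (4.74%) lower. The median log2 ratio of all genes was 0.22, and TMM scaling moved it to -0.00077 and the higher count to 402. At 7 dpi against Uninjured, 236 of 5082 genes (4.64%) were higher and 151 (2.97%) lower, with a median of 0.11 that TMM scaling moved to -0.10. TMM scaling turned that balance round, to 143 higher and 240 lower.

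Interferon-stimulated genes (ISGs), which cells switch on when interferon binds its receptor, were high together at 1 dpi. Of 17 ISGs tested, 16 were past 2-fold higher and none lower, with a median log2 ratio of 2.05 against 0.22 over all genes. The exception was the chemokine Cxcl10, at 592, 329, 397 and 632 CPM. Under TMM scaling 15 were higher, without Ifit1, and Cxcl10 was past 2-fold lower. Irf7, the transcription factor that amplifies interferon production (chr7:141262706-141266481, minus strand, GRCm38), was at 24.1 CPM in Uninjured, 280 at 1 dpi, 89.8 at 3 dpi and 76.6 at 7 dpi. The ratio at 1 dpi was 11.6 (8.52 to 16.1). Oas3, which makes the second messenger that activates RNase L, was at 2.68, 66.8, 31.1 and 19.1 CPM (ratio 24.9, 10.3 to 78.4). Ifit3, which binds viral RNA complexes, was at 13.9, 132, 50.8 and 46.3 CPM (ratio 9.50, 6.30 to 14.9), and its close copy Ifit3b also passed, so reads may be shared between them. Bst2, or tetherin, was at 154, 663, 252 and 212 CPM (ratio 4.31, 3.78 to 4.93). The ubiquitin-like Isg15 was at 190, 521, 336 and 325 CPM (ratio 2.74, 2.41 to 3.11). Each was highest at 1 dpi and was above its Uninjured level at 3 and 7 dpi.

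The high level at 1 dpi was spread over cells. The 5 highest cDC2 held 15.8% of the Irf7 UMIs at 1 dpi and 19.4% of those of Oas3. In cells thinned to 2000 UMIs, the median of summed ISG UMIs per cDC2 was 3 in Uninjured, 11 at 1 dpi, 4 at 3 dpi and 4 at 7 dpi, and 12.0%, 52.7%, 19.4% and 19.5% of cDC2 had 10 or more. The same median was 4, 22, 7 and 4 in C1q macrophages, 8, 17, 3 and 6.5 in classical monocytes and 3, 4, 3 and 2 in T cells. A high 1 dpi level was therefore shared with the macrophages and monocytes of that library, and macrophages were above cDC2. The 5 promoters below belong to the ISGs named above and are shown because their genes were high together. Each is the 250 bases before the RefSeq transcript start (GRCm38.p6), 5′ to 3′ on the gene's strand, and capitals mark GAAA, any 2 bases and GAAA, the core of the element bound by interferon-regulatory factors, on either strand, with overlapping matches run together. Oas3 is at chr5:120777660-120777909 (minus strand), Ifit3 at chr19:34583279-34583528 (plus), Isg15 at chr4:156200819-156201068 (minus), Bst2 at chr8:71537473-71537722 (minus) and Irf7 at chr7:141266425-141266674 (minus).
Oas3: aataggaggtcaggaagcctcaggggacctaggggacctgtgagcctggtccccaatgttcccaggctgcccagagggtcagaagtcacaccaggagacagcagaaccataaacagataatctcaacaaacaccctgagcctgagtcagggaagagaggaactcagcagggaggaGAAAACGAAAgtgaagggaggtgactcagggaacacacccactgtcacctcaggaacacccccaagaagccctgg
Ifit3: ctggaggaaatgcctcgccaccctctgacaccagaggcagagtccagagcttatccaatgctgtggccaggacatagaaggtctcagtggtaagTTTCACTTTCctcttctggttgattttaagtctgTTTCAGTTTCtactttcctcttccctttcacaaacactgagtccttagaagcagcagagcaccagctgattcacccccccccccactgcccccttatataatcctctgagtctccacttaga
Isg15: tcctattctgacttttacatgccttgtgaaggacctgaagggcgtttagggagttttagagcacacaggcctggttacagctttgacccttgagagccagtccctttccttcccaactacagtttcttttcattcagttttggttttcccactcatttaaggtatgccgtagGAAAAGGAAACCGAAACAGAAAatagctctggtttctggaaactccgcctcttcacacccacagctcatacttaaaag
Bst2: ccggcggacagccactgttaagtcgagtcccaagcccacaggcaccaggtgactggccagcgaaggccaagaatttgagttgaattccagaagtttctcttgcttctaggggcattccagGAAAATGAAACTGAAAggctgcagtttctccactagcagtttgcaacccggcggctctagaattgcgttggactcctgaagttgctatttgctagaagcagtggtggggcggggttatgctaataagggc
Irf7: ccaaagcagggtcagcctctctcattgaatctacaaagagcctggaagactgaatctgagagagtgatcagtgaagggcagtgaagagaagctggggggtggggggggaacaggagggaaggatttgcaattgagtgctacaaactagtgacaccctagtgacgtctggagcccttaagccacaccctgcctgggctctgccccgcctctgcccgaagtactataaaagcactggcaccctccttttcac

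Oas3 had 1 match, 75 bases before the start, Ifit3 had 2, at 156 and 122 bases, Isg15 had 3 between 78 and 66 bases, Bst2 had 2, at 130 and 124 bases, and the Irf7 window had none. Of the 16 ISGs higher at 1 dpi, 12 had a promoter in the table and 7 of these held the letters (Bst2, Ifit1, Ifit3, Irgm1, Isg15, Rsad2 and Stat2), against 978 of 32851 promoters (2.98%) in all. Of the 8 genes with the largest ratio at 1 dpi, 5 had a promoter and 2, Ifit3b and Oas3, held them, and of the 8 with the smallest ratio 7 had a promoter and 1, Cxcl14, held them. A match is a description of the letters and no evidence of binding in these cells.

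**Figure D3:**
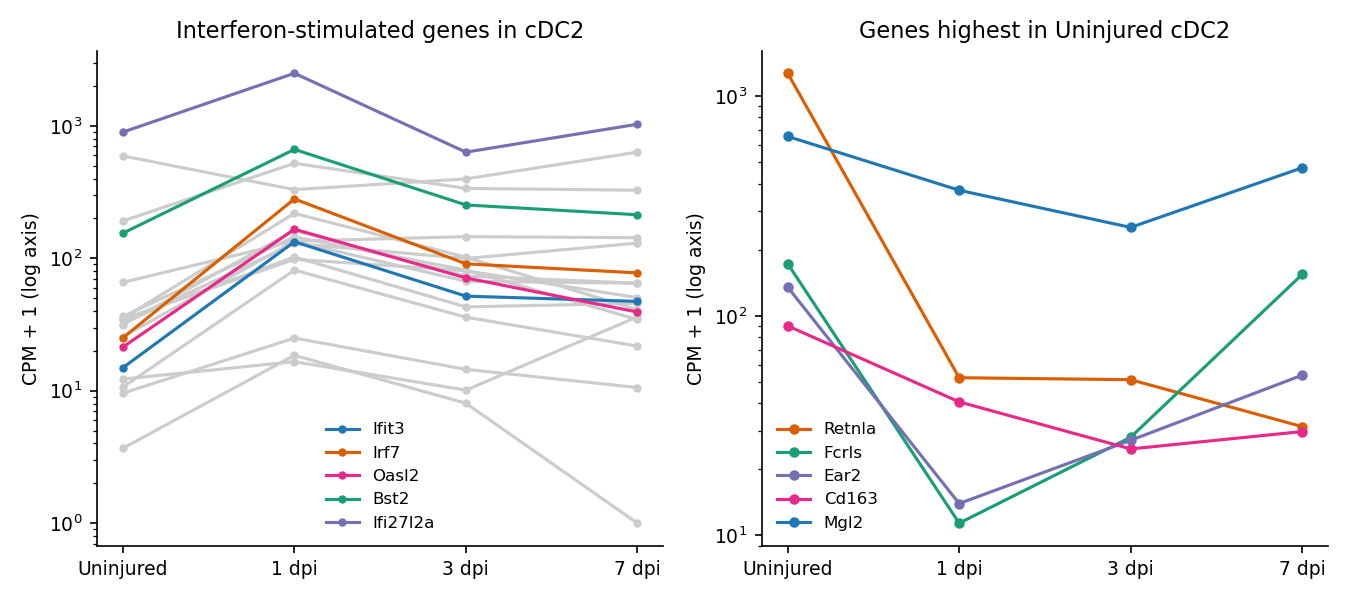
CPM + 1 on a log axis in cDC2 at the 4 time points, 1 library each, for 19 interferon-stimulated genes (left, 5 in colour) and 5 genes highest in Uninjured (right). Irf7 goes from 24.1 in Uninjured to 280 CPM at 1 dpi, and Retnla from 1269 to 51.2 CPM.

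Genes of class I presentation, which shows peptides to CD8 T cells, were higher in part. Of 12 class I genes tested at 1 dpi, 5 were higher and none lower, against 11.2% of all genes higher: B2m, Tap1, Tapbp, Erap1 and Nlrc5. Tap1, a subunit of the peptide pump into the endoplasmic reticulum, was at 70.2, 227, 146 and 87.7 CPM (ratio 3.23, 2.64 to 3.98). Nlrc5, the transactivator of class I genes, was at 3.21, 33.1, 16.1 and 9.57 CPM (ratio 10.3, 4.42 to 29.3). B2m, the class I light chain, was at 991, 2162, 1502 and 1039 CPM, and under TMM scaling its log2 ratio of 0.91 was within 2-fold, as was that of Erap1, which left 3 of 12. None of the class II processing genes was past 2-fold at 1 dpi, as given above.

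Monocyte genes were mixed at 1 dpi, where 11.2% of all genes were higher and 4.74% lower. Of 9 tested, 4 were higher, among them Plac8, Ms4a4c and, not under TMM scaling, Spn, and 3 lower (Fn1, Ace, Ear2), with a median log2 ratio of 0.09 (-0.13 under TMM scaling). Of 9 macrophage genes outside the gates, 1 was higher, Fcgr1, and 3 lower (Cd163, Apoe, Gas6). Plac8, given above against monocytes, was 10.4-fold (9.10 to 11.9) higher than in Uninjured. It had a UMI in 15.1%, 74.4%, 26.3% and 34.5% of thinned cDC2, against 15.1%, 14.5%, 18.3% and 16.7% of T cells. Related cells of the 1 dpi library were high too, with Plac8 at 1741 CPM in C1q macrophages against 154.5 in Uninjured. In the 13 cDC1 of 1 dpi it was at 1401 CPM, against 488 CPM in the 6 of Uninjured. Ly6e, a GPI-anchored protein on neither list, was at 141, 1346, 630 and 474 CPM (ratio 9.52, 8.37 to 10.9), and at 324, 904, 827 and 505 CPM in T cells. Ms4a4c was at 109, 668, 403 and 175 CPM (ratio 6.11, 5.25 to 7.13). Fcgr1, the high-affinity IgG receptor used to tell monocyte-derived cells from cDC2, was at 10.2, 89.5, 41.1 and 33.5 CPM (ratio 8.79, 5.42 to 15.1). In C1q macrophages Ms4a4c was at 103 CPM in Uninjured and 935 CPM at 1 dpi, and Fcgr1 at 124 and 554 CPM. Classical monocytes held Ms4a4c at 287 and 685 CPM and Fcgr1 at 95.6 and 376 CPM. At 1 dpi 55 cDC2 had a Ly6c2 UMI and 77 did not. In the first group Plac8 was at 1832 CPM against 954 in the second, Irf7 at 315 against 249, Flt3 at 85.9 against 117, Cd209a at 722 against 1092 and Mgl2 at 192 against 526. Both groups were thus far above the Uninjured cDC2 in Plac8 and Irf7, and the cells with Ly6c2 were lower in Mgl2. Cd209a was used by the rule, and Flt3 rests on 61 and 97 UMIs.

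Of 21 identity genes tested at 1 dpi, 3 were higher and none lower, against 11.2% of all genes higher, and under TMM scaling 2 were higher and 2 lower, Mgl2 among them. The 3 were Sirpa (ratio 2.02, 1.67 to 2.44, within 2-fold under TMM scaling), Csf2rb, the shared receptor chain for GM-CSF and IL-3, at 53.6, 184, 218 and 92.5 CPM (ratio 3.44, 2.73 to 4.36), and Kmo (ratio 2.42, 1.80 to 3.29). Flt3, at 63.2, 102, 87.5 and 35.1 CPM, was within 2-fold at 1 dpi. Tlr2, which senses bacterial lipoproteins, was at 29.5, 96.7, 72.5 and 28.7 CPM. Of 6 chemokine receptors 3 were higher (1 under TMM scaling) and 1 lower, and of 4 pattern receptors 2 were higher and none lower. The costimulatory receptor Cd40 was at 15.5, 45.4, 44.9 and 27.1 CPM and the PD-1 ligand Cd274 at 5.89, 44.1, 30.2 and 1.60 CPM.

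A set of genes was at its highest in Uninjured cDC2. Retnla, a secreted protein of the type 2 response, was at 1269, 51.2, 50.2 and 30.3 CPM, 24.8-fold (19.8 to 31.4) lower at 1 dpi. It was concentrated in few cells: 33 Uninjured cDC2 had a UMI, and the 5 highest held 54.3%. Fcrls, an Fc receptor-like protein, was at 171, 10.4, 27.0 and 153 CPM (16.5-fold lower at 1 dpi, 10.0 to 29.3), and 56 Uninjured cells held it. In CPM over all cDC2, Fcrls had returned at 7 dpi and Retnla had not. The share of cDC2 with an Fcrls UMI was 33.3% in Uninjured and 16.5% at 7 dpi, with the cells not matched for depth. Ear2, an eosinophil-type ribonuclease also found in patrolling monocytes, was at 134, 12.97, 26.1 and 52.6 CPM, and Cd163 at 88.9, 39.6, 23.8 and 28.7 CPM. C1q macrophages of the Uninjured library held Retnla at 3639 CPM and Fcrls at 317 CPM. After members with 3 or more C1q UMIs were removed, 2 Retnla UMIs were left at 1 dpi against 1926 in Uninjured (807-fold lower, 223 to 6668), Fcrls was 27.3-fold lower and Cd163 3.11-fold lower. Fcrls was then at 158 CPM in Uninjured and 104 CPM at 7 dpi. Mgl2 was lower after injury, at 654, 372, 252 and 471 CPM, and passed 2-fold at 1 dpi only under TMM scaling (log2 ratio -1.04).

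Several other genes with the smallest ratio at 1 dpi were genes of connective tissue cells. Cxcl14 was at 427, 35.0, 141 and 131 CPM in cDC2 and at 470, 321, 443 and 80.7 CPM in T cells. The Wnt modulator Sfrp4 was at 84.1, 7.78, 18.2 and 7.98 CPM in cDC2 and at 92.0, 19.4, 15.7 and 29.0 CPM in T cells. In Uninjured the 5 highest cDC2 held 83.6% of Cxcl14 and 94.3% of Sfrp4 UMIs. The log2 ratio of Cxcl14 was -0.87, within 2-fold, when cells with high doublet scores were removed. The 7 mesenchymal genes, such as Col1a1 and Dcn, summed to 5149, 1342, 3272 and 9027 CPM in cDC2 and to 10373, 2991, 7770 and 14791 CPM in T cells, so cDC2 were below T cells in every library. Of the 16 immediate early and heat shock genes, 4 were lower at 1 dpi (Fos, Jund, Atf3, Dnajb1) and none higher, against 4.74% of all genes lower. Fos was at 8738, 4239, 3063 and 4655 CPM, and within 2-fold without members with a Ly6c2 UMI (log2 ratio -0.97). Such genes respond to tissue digestion, and their part in these levels was not tested.

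At 3 dpi against 1 dpi, 348 of 7771 genes (4.48%) were higher and 123 (1.58%) lower. The lower genes included much of the 1 dpi pattern: of 19 ISGs tested 11 were lower and none higher, Plac8 was 4.38-fold (4.06 to 4.72) lower and Irf7 3.11-fold (2.68 to 3.62) lower. Spib, a transcription factor of plasmacytoid and B cells, was at 1.61, 33.1, 5.87 and 3.19 CPM, and the DNA-binding Mndal at 141, 573, 171 and 128 CPM. None of 22 identity genes was past 2-fold in either direction.

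The pooled CPM of some maturation genes was higher at 3 dpi. Of 16 genes of maturation and migration tested, 6 were higher than at 1 dpi (Ccr7, Fscn1, Cd80, Socs2, Ccl17, Ccl22) and none lower, against 4.48% of all genes higher. Of the 91 Fscn1 UMIs at 3 dpi, 70 lay in the 71 cells with at least 2 UMIs of Mki67 and Top2a and 2 in the 21 cells with at least 2 Ccr7 UMIs, and its thinned share was 3.16% of cDC2 and 3.92% of T cells. Ccl17, a ligand of the T cell receptor Ccr4, was at 8.57, 54.5, 134 and 19.1 CPM (ratio 2.45, 1.94 to 3.13), against at most 0.492 CPM in T cells. Its sister chemokine Ccl22 was at 2.14, 11.0, 64.9 and 1.60 CPM (ratio 5.88, 3.59 to 10.3). Ccr7, the receptor that guides dendritic cells to lymph nodes, was at 23.0, 8.43, 45.8 and 7.98 CPM (ratio 5.43, 3.08 to 10.4). T cells, which use Ccr7 themselves, held it at 42.8 CPM at 3 dpi. The 3 genes sat in few cells: 44 of 499 cDC2 at 3 dpi had a Ccl17 UMI, 11 a Ccl22 UMI and 32 a Ccr7 UMI, and 6 had all 3. At 1 dpi 6, 5 and 9 of 132 cDC2 had a UMI of Ccl17, Ccl22 and Ccr7. The share of cDC2 with Ccr7 was thus not higher, at 9.52% in Uninjured, 6.82% at 1 dpi and 6.41% at 3 dpi. Thinned, it was 3.61%, 3.88% and 4.84%. The Ccr7 cells of 3 dpi held 96.4% of the Ccl22 and 56.9% of the Ccl17 UMIs. The 71 cells with at least 2 UMIs of Mki67 and Top2a held 166 of 221 Ccl22 and 260 of 455 Ccl17 UMIs. Weighing each cell equally reduced the log2 ratio of Ccl17 to 0.52, within 2-fold. By contrast Il4ra, the receptor for IL-4 and IL-13, was at 47.7, 112, 225 and 65.4 CPM, and Gpr171, a G protein-coupled receptor at 20.9, 116, 165 and 28.7 CPM, was spread over 251 of the 3 dpi cells.

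The 8 genes with the largest ratio at 3 dpi were Camp, Ngp, Lcn2, Chil3, S100a9, Ltf, Ptx3 and S100a8, most of them products of neutrophils or their precursors. S100a8, a calcium-binding alarmin, was at 27.3, 48.7, 478 and 0 CPM in cDC2 and at 288, 719, 153 and 3.23 CPM in T cells (ratio at 3 dpi 9.82, 7.79 to 12.5). Of the 3 dpi UMIs of S100a8, 92.8% lay in 5 cDC2, as did 94.0% of those of S100a9 and 96.7% of those of Camp. Over 11 neutrophil and granule genes together, 9 cDC2 with 20 or more such UMIs held 6422 of 6720 (95.6%), while 61.7% of the 3 dpi cDC2 had none. Without cells of high doublet score the log2 ratio was -0.37 for Camp, -0.19 for Chil3, -0.19 for S100a9 and 0.04 for S100a8. The 3 dpi level of these genes thus rested on a few cells.

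**Figure D4:**
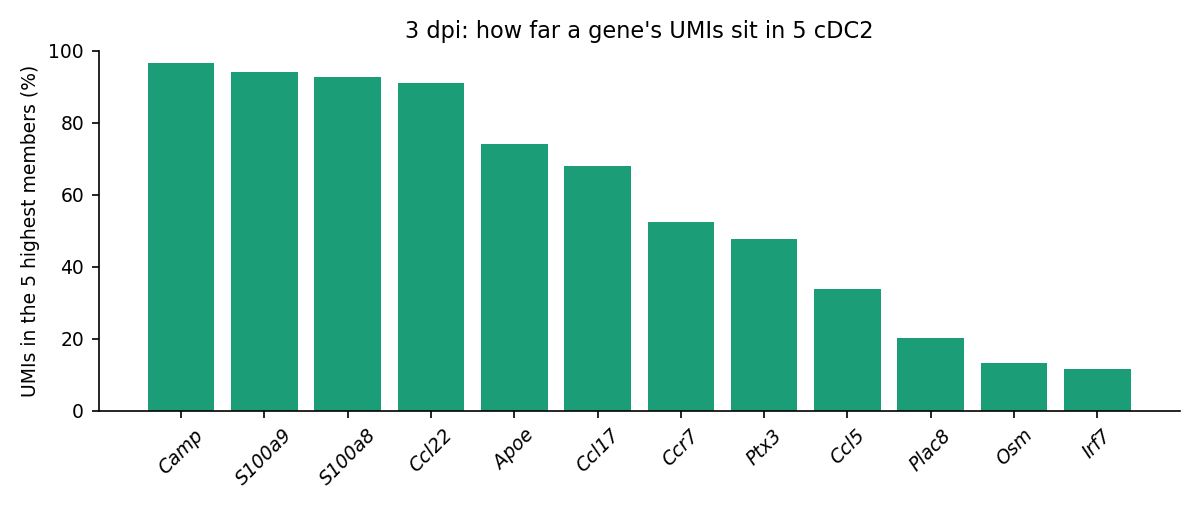
Percent of a gene's UMIs at 3 dpi that lie in the 5 of 499 cDC2 with the most, for 12 genes, as bars from 0 to 100%. The neutrophil genes Camp, S100a9 and S100a8 stand above 90%, Ccl22 at 91.0% and Ccl17 at 67.9%, and Plac8, Osm and Irf7 near or below 20%.

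At 7 dpi against 3 dpi, 255 of 7243 genes (3.52%) were higher and 720 (9.94%) lower. With high doublet scores removed, 587 were higher. Of 16 maturation genes 8 were lower and none higher: Ccr7, Cd80, Cd83, Cd274, Ccl17, Ccl22, Icosl and Cxcr4. Ccl17 was 6.97-fold (3.95 to 13.6) lower, Ccr7 5.74-fold (2.41 to 17.9) and Cd83, a surface protein of mature dendritic cells at 510, 546, 575 and 284 CPM, 2.02-fold (1.73 to 2.37). Of 22 identity genes 5 were lower and none higher. Flt3 was 2.49-fold (1.62 to 4.04) lower, Kmo 2.79-fold (1.89 to 4.28) and Csf2rb 2.36-fold (1.80 to 3.14), with Notch2 and Runx3 the others. Against Uninjured, none of 20 identity genes was past 2-fold, and under TMM scaling only Flt3 was. Gpr171 was 5.73-fold (3.59 to 9.74) lower and the glucocorticoid-induced Tsc22d3, at 234, 526, 355 and 68.6 CPM, 5.18-fold (3.82 to 7.20) lower. T cells held Tsc22d3 at 279, 430, 393 and 104 CPM, the same order as in cDC2.

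The 8 genes with the largest ratio at 7 dpi were C1qtnf3, Pth1r, Fmod, Ecrg4, Ptn, Comp, Tnn and Col27a1, which belong to cartilage, tendon and matrix-forming cells. C1qtnf3 was at 3.75, 0.649, 2.05 and 359 CPM in cDC2, and at 478 CPM in the T cells of 7 dpi. Pth1r, the parathyroid hormone receptor, was at 102 CPM against 88.4 CPM in T cells, and the other 7 were lower in cDC2 than in T cells. Col2a1, the collagen of cartilage, had no UMI in cDC2 before 7 dpi, when it reached 1347 CPM against 1546 CPM in T cells, and 24.1% of thinned cDC2 and 22.8% of thinned T cells had a UMI. The 7 cartilage genes summed to 2339 CPM in cDC2 and 2937 CPM in T cells at 7 dpi, and to at most 27.3 CPM in cDC2 before. The summed level was thus higher in T cells, which do not make cartilage, than in cDC2.

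**Figure D5:**
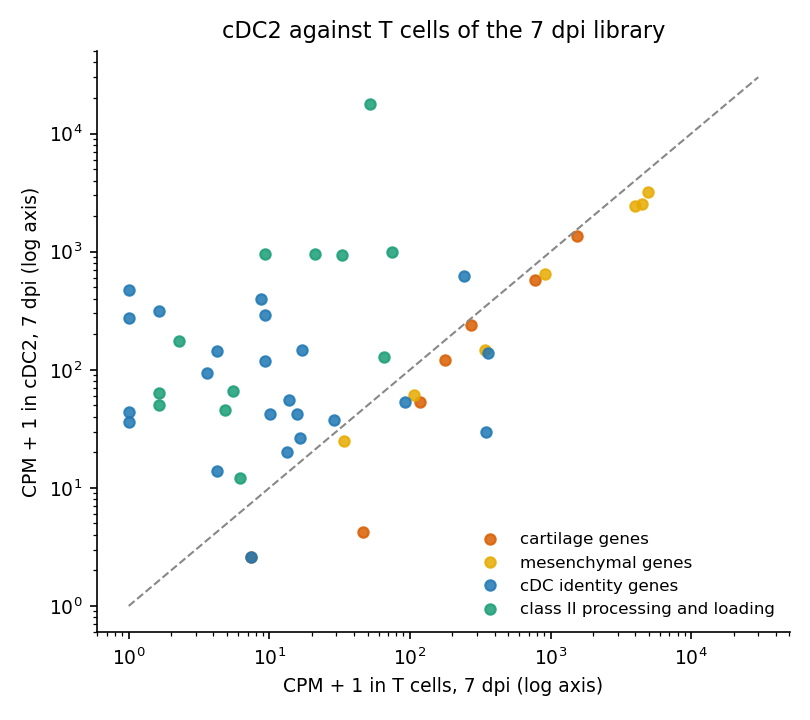
CPM + 1 in cDC2 (vertical) against T cells (horizontal) of the 7 dpi library, 1 point per gene on log axes, with the dashed line at equality. Cartilage and mesenchymal genes lie near or below the line, as for Col2a1 at 1347 against 1546 CPM, while class II processing genes and most identity genes lie above it.

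Some genes returned towards Uninjured levels at 7 dpi. Lyz2, the myeloid lysozyme, was at 4235, 1542, 1179 and 3216 CPM (ratio at 7 against 3 dpi 2.73, 2.58 to 2.88). The neutrophil-attracting chemokine Cxcl2 was at 722, 303, 303 and 863 CPM (ratio 2.85, 2.56 to 3.17). Both were at least 2-fold higher in Uninjured and at 7 dpi than at 1 and 3 dpi. Of 15 ISGs tested at 7 dpi against Uninjured, against 4.64% of all genes higher, 6 were past 2-fold higher and none lower (4 under TMM scaling), among them Irf7 (ratio 3.18, 2.07 to 4.88). Weighing each cell equally put its log2 ratio at 0.97, within 2-fold.

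Among secreted factors, Il1b was one of the most abundant, at 1346, 933, 1590 and 1203 CPM, and never moved past 2-fold. It had a UMI in 45.2%, 51.9%, 68.4% and 56.3% of thinned cDC2, against 0%, 4.55%, 3.13% and 0% of T cells. Ccl4, a chemokine that attracts T cells and monocytes, was at 2854, 3167, 3676 and 2500 CPM, the highest of the chemokines named here. Osm, the cytokine oncostatin M, was at 33.8, 138, 173 and 83.0 CPM (ratio at 1 dpi 4.07, 3.06 to 5.49). Tnf was at 90.5, 149, 143 and 115 CPM and Tgfb1 at 159, 157, 134 and 188 CPM, both within 2-fold. Tnfsf9, the ligand of 4-1BB on T cells, was at 201, 298, 237 and 98.9 CPM. Il12b, a subunit of the T cell cytokines IL-12 and IL-23, had UMIs only at 3 dpi (0.587 CPM), and the floors of 3 UMIs were 1.61, 1.95 and 4.79 CPM in Uninjured, 1 and 7 dpi. Igf1, a muscle growth factor, was at 53.6, 10.4, 73.4 and 142 CPM in cDC2 and at 76.5, 59.6, 129 and 232 CPM in T cells, which were above cDC2 throughout.

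A minority of cDC2 held UMIs of genes of cell division. With at least 2 UMIs of Mki67 and Top2a together were 17 of 168 (10.1%) in Uninjured, 26 of 132 (19.7%) at 1 dpi, 71 of 499 (14.2%) at 3 dpi and 8 of 91 (8.79%) at 7 dpi. These cells were deep, with a median of 15019 UMIs in Uninjured. Thinned, Mki67 had a UMI in 6.02%, 14.0%, 12.4% and 8.05% of cDC2 and in 5.03%, 4.33%, 14.6% and 15.0% of T cells. Of 20 cell cycle genes tested at 1 dpi, where 11.2% of all genes were higher, the DNA replication genes Mcm2, Mcm3, Mcm5, Mcm6 and Mcm7 were higher and the mitotic kinase Cdk1, at 38.6, 11.0, 26.4 and 30.3 CPM, was lower. Under TMM scaling only Mcm2 stayed past 2-fold higher. Glycolysis and hypoxia genes were within 2-fold, 14 of 14 tested at 1 dpi, 14 of 14 at 3 dpi and 14 of 14 at 7 dpi against the time before.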

How the data were processed

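The deposited files hold the authors' raw UMI counts per gene and cell, made with cellranger 5.0.0 on mm10 per the labels; Seurat 3.1.1 is named for later steps. A down-sampling step is also listed there; its place relative to the deposited matrices is not given in the sources used here. The study removed doublets with DoubletFinder; here none were removed, and an alternative dropped the 7.5% of cells of each library with the highest Scrublet score. Libraries shared 30 to 95 cell barcodes. Of 32285 genes, 32158 (99.6%) matched the GENCODE annotation of GRCm38, and promoters came from RefSeq.

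The members and gene lists were chosen with earlier results of these data known. Cells over 10% mitochondrial UMIs were left out. Time points were compared by CPM ratios with exact binomial intervals, and a gene was called past 2-fold. Gates were compared on UMIs summed per library with edgeR 4.0.16 (quasi-likelihood, TMM, filterByExpr, library as a block, Benjamini-Hochberg, threshold 0.05), with DESeq2 1.42.0 as an alternative. Nothing in the labels makes the libraries separate cultures or animals of 1 group, so the p-values do not measure the spread between animals. With library as a block, they measure how far differences between gates vary across these 4 libraries, which are also the time points. For cDC1, only the libraries whose cDC1 sums were kept enter the difference. In counts simulated for each comparison, 51.6% of genes changed 4-fold were called against cDC1, 94.9% against C1q macrophages and 90.4% against classical monocytes. The simulation gave every gene a dispersion of 0.1 and the gates no other difference in expression. The spread of the real gates can differ, so these rates need not hold for them.

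Named genes were, between successive time points, the 8 in each direction with the largest ratio among genes with at least 50 UMIs in the higher and 5 in the lower library and a CPM of at least 20% of that over all kept cells, and, between gates, the 10 in each direction with the largest log2 fold change among genes called and changed the same way in every library, plus examples from the lists. Removing members with a Ly6c2 UMI, thinning cells with a Ptprc UMI and keeping sums under 10 cells were alternatives added after seeing the data. Python 3.11.15, numpy 2.4.6, scipy 1.17.1, pandas 2.3.3, scanpy 1.11.5 and R 4.3.3 were used.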

Additional observations from a re-analysis of the deposited data

How the results depend on the processing

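Of 911 single-gene values between time points under alternatives, 797 stayed within counting error of the value reported, 106 moved and 8 reversed, and of 1371 gene values between gates 1286 kept their call, 83 lost it, 2 gained it and none reversed. The reversals were neutrophil genes and Chil3, a gene of the monocyte list, at 3 dpi against 1 dpi. With high doublet scores removed the log2 ratio was -0.37 for Camp, -0.19 for Chil3 and -0.19 for S100a9, and without members with a Ly6c2 UMI it was -0.88 for Camp, -1.09 for Ngp, -0.92 for S100a9, -0.52 for Ltf and -1.17 for S100a8; the cause was not tested.

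The share of cDC2 in Uninjured was 0.754% thinned, 11.0% among Ptprc cells, 5.96% among thinned Ptprc cells and 1.71% with 1 or more Cd209a UMIs. At 1 dpi it was 0.607% thinned, 2.25% among Ptprc cells and 0.709% without Ly6c2 members. At 3 dpi it was 2.84% thinned, 8.80% among Ptprc cells, 7.77% among thinned Ptprc cells, 4.23% and 3.07% with at least 1 and 3 Cd209a UMIs, and 3.17% without Ly6c2 members. At 7 dpi it was 0.279% thinned, 2.18% and 1.88% among all and thinned Ptprc cells, and 0.617% and 0.300% with at least 1 and 3 Cd209a UMIs.

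Counts past 2-fold depended on the minimum of UMIs by construction, since it sets the genes tested. With 20 and 200 UMIs, 1 dpi against Uninjured gave 1183 and 183 higher and 584 and 105 lower, 3 dpi against 1 dpi 720 and 85 higher and 242 and 43 lower, 7 dpi against 3 dpi 552 and 76 higher and 1197 and 204 lower, and 7 dpi against Uninjured 630 and 40 higher and 392 and 46 lower. TMM scaling gave 402 higher at 1 dpi against Uninjured, and 143 higher and 240 lower at 7 dpi against Uninjured. At least 3 Cd209a UMIs gave 186 lower at 1 dpi and 365 higher at 7 dpi, both against Uninjured. With high doublet scores removed, 587 were higher at 7 dpi against 3 dpi and 417 against Uninjured.

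Between gates, the fit without the library block gave 220 higher and 123 lower against cDC1, 361 and 361 against C1q macrophages, and 241 and 190 against classical monocytes. With no filter on low counts, 780 were higher against cDC1 and 648 lower against monocytes. Leaving out each library gave 183 to 383 higher and 96 to 205 lower against cDC1, 541 to 709 and 507 to 786 against macrophages, and 352 to 467 and 249 to 371 against monocytes. No paired analysis was possible because each time point is 1 library, as far as time points are compared, while gates were compared with the library as a block. The 91 cDC2 of 7 dpi held 626798 UMIs, which limits the precision of the 7 dpi values.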
